A study of Mus musculus with 16 samples.

Results

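Tubulins are the building blocks of microtubules. The genes described here are 10 mouse tubulin genes, taken by their symbol from the 54658 symbols of the count tables: the α-tubulins Tuba1a, Tuba1b and Tuba1c, the β-tubulins Tubb2a, Tubb2b, Tubb3, Tubb4b, Tubb5 and Tubb6, and the γ-tubulin Tubg1. All 10 were present in the tables, and 9 of them were among the 9757 genes with an average over 10 CPM that could be tested. CPM is the usual depth-scaled read count, the counts of a gene relative to the library's total count after adjustment by its TMM factor. Tubb2b had too few reads.

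The cells were C17.2α neural cells, an immortal line from mouse cerebellum in which mouse TRα1, a thyroid hormone receptor, is stably overexpressed. Every group shares this receptor and a serum stripped of thyroid hormone, and T3 was not added. For 24 h the cells received the solvent DMSO (2 libraries), azoxystrobin at 100 or 1000 nM, or picoxystrobin, pyraclostrobin or trifloxystrobin at 30, 100, 300 and 1000 nM. Each concentration was sequenced once, so that different concentrations stand in for replicates of a compound, and the labels do not say whether the 2 DMSO libraries came from separate cultures. P-values then measure only the spread between these libraries.

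Strobilurins are fungicides that block the cytochrome bc1 complex of the mitochondrial respiratory chain. Azoxystrobin and picoxystrobin are methoxyacrylates, trifloxystrobin is an oximino acetate, and pyraclostrobin is a methoxycarbamate with a chlorophenylpyrazole side chain. The comparisons ask whether tubulin mRNA differed between each strobilurin and the solvent, along the concentrations of a strobilurin, and between strobilurins at the same concentrations.

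α- and β-tubulin form the heterodimer that polymerises into microtubules, and γ-tubulin, in its ring complex, starts new microtubules. Cells adjust α- and β-tubulin mRNA to the pool of free heterodimer. When free tubulin is abundant, TTC5 binds the first residues of the tubulin chain as it leaves the ribosome, and the mRNA is then degraded with the help of SCAPER and the CCR4-NOT deadenylase. Drugs that depolymerise microtubules therefore lower tubulin mRNA, and drugs that stabilise microtubules increase it. β-tubulin isotypes differ between tissues, Tubb3 being best known from neurons and Tubb5 and Tubb4b from most tissues.

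The residues read by TTC5 are encoded in the first 12 coding bases, which are printed in capitals in the following 30-base coding starts (GENCODE M21, GRCm38, the build of the mm10 counts). They are shown because this stretch decides which members can be subject to the autoregulation. In the α-tubulins the bases are spread over 2 exons, so that the interval spans an intron, whereas each of the others lies in 1 coding exon.

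Tuba1a, chr15:98951665-98953453, minus strand: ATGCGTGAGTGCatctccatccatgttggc

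Tuba1b, chr15:98933169-98934335, minus strand: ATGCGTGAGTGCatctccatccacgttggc

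Tuba1c, chr15:99030422-99034120, plus strand: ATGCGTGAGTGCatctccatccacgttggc

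Tubb2a, chr13:34077900-34077929, minus strand: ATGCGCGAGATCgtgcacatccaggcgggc

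Tubb2b, chr13:34130204-34130233, minus strand: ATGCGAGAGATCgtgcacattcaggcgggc

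Tubb3, chr8:123411606-123411635, plus strand: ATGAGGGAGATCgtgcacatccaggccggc

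Tubb4b, chr2:25224561-25224590, minus strand: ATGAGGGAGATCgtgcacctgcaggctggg

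Tubb5, chr17:35838024-35838053, minus strand: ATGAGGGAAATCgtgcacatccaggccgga

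Tubg1, chr11:101120194-101120223, plus strand: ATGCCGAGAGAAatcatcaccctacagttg

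The capitals encode methionine-arginine-glutamate-cysteine in the 3 α-tubulins and methionine-arginine-glutamate-isoleucine in the 5 β-tubulins shown. The coding start of Tubb6 is not shown. Tubg1 begins with methionine-proline-arginine-glutamate and lacks both. Codon use differed between the β-tubulins, the arginine codon being cgc in Tubb2a, cga in Tubb2b and agg in Tubb3, Tubb4b and Tubb5.

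The same likeness limits the counts. The coding sequences of Tuba1a and Tuba1b were 98.3% identical, those of Tuba1b and Tuba1c 98.1%, and those of Tuba1a and Tuba1c 97.3%. Of all 50-base windows of their transcripts, 75.5% in Tuba1a, 83.1% in Tuba1b and 61.0% in Tuba1c also occurred in a transcript of another gene. The share was 55.5% for Tubb4b, owing mostly to the pseudogenes Tubb4b-ps1 and Tubb4b-ps2, 49.6% for Tubb2a, 39.3% for Tubb2b, 14.1% for Tubg1 and 0.1% for Tubb5. For Tubb3 and Tubb6 no window was shared. How reads with several matches were counted is not given in the sources used here, so the levels of the α-tubulins, Tubb2a, Tubb2b and Tubb4b are uncertain, and differences between libraries could in part be shared with their copies. Tubb4b-ps1 was at 1.74 to 6.22 CPM and Tubb4b-ps2 at 0.758 to 3.27 CPM. The read-through gene models that overlap Tuba1a, Tuba1b and Tubb3 on the same strand, Gm49450 and Gm20388, had no reads in any library. How reads over overlapping gene models were counted is not given either. Whether reads were lost from these tubulin genes is therefore not known. On the opposite strand, Gm41396, which overlaps Tuba1b, reached at most 0.871 CPM and Fam166a, which overlaps Tubb4b, at most 0.0647 CPM, and since the strand setting is not given these reads cannot be told apart from those of the tubulin genes.

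The total count was 12292390 to 18188099 per library, with a median of 16180381 over 15 libraries. Among the 120 pairs of deposited tables, 1 held equal counts for every gene, that of DMSO library 2 with azoxystrobin at 100 nM, and the others differed in at least 22355 genes. The azoxystrobin label was left out, and whether these counts belong to DMSO or to azoxystrobin cannot be told apart. Picoxystrobin at 1000 nM stood apart from the 3 lower concentrations of the compound: the log2 difference from DMSO correlated across genes with the GC content of the transcript at r = -0.634, -0.704 and -0.738 at 30, 100 and 300 nM, and at r = 0.201 at 1000 nM. The 9 tested tubulin genes had GC contents of 52 to 57.9%, all above the median of 48.9% of the tested genes. The progenitor markers Nes, Sox2 and Vim were detected and Pax6 was not above 0.127 CPM. Of 7 neuronal markers, only Map2 had an average over 1 CPM, and Rbfox3, Neurod1 and Stmn2 had no reads, while Map2 itself was at 108 to 161 CPM. Markers of microglia and endothelial cells were near 0. All 5 oligodendrocyte lineage markers and 4 of 5 mesenchymal markers, Col1a1 among them, exceeded 1 CPM. In bulk RNA, fewer cells of one kind and less RNA per cell cannot be told apart.

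Levels of different genes were compared per kilobase of the longest transcript. Tubb5, the ubiquitous class I β-tubulin, had the highest level at 1070 CPM per kb on average over the 15 libraries (range 930 to 1410), followed by Tuba1a at 425 CPM per kb (390 to 496). These ranges did not overlap. Tubb6 followed at 103 CPM per kb (71.6 to 182), Tuba1b at 68.7 (46.6 to 96.6), Tubb4b at 56.5 (42.6 to 88.5), Tubb2a at 35.2 (27.7 to 44.0), Tubg1 at 22.6 (15.8 to 33.0), Tuba1c at 19.3 (15.1 to 28.0) and Tubb3 at 9.62 (6.25 to 16.4). From Tubb6 downwards, each of these neighbours overlapped the next in its range over libraries. The order was the same in CPM without the length. Tubb2b had 17 reads in all 15 libraries together and none in 5 of them, and a count of 0 allows up to 0.165 to 0.244 CPM at these depths. Tubb5 made up 79.1 to 86.0% of the 6 β-tubulins per kilobase and Tuba1a 77.8 to 88.7% of the 3 α-tubulins. The 10 genes together took 0.359 to 0.551% of a library's counts, the highest share being that of picoxystrobin at 1000 nM.

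Among the α-tubulins, Tuba1a, a major α-tubulin of developing neural cells, varied little. It was at 739.6 and 703.5 CPM with DMSO and at 753.1 CPM with azoxystrobin at 1000 nM. From 30 to 1000 nM it was at 809, 743.4, 894.3 and 787.6 CPM with picoxystrobin, at 741, 754.4, 790.1 and 788.7 CPM with pyraclostrobin, and at 712.5, 747.1, 776.6 and 742.6 CPM with trifloxystrobin. All 4 libraries of picoxystrobin and all 4 of pyraclostrobin lay above both DMSO libraries, with the highest value at 300 nM picoxystrobin.

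Tuba1b, which is expressed in most tissues, was at 125.1 and 103.6 CPM with DMSO and 111.1 CPM with azoxystrobin. It was at 103.2, 88.5, 81.2 and 168.3 CPM along the concentrations of picoxystrobin, at 137, 120.9, 148.1 and 142.6 CPM with pyraclostrobin, and at 101.1, 128.7, 119.8 and 117.2 CPM with trifloxystrobin. The lowest and the highest library were both picoxystrobin, at 300 and 1000 nM. Tuba1c was at 43.8 and 36.4 CPM with DMSO and at 29.9 to 55.5 CPM over all libraries, lowest with azoxystrobin at 1000 nM and highest with picoxystrobin at 1000 nM. Along the concentrations of pyraclostrobin it was at 43.1, 43.2, 42.2 and 32.5 CPM, the only tested member that was lower at 1000 nM than at the 3 other concentrations of this compound.

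Among the β-tubulins, Tubb5 was at 2933 and 2665 CPM with DMSO and 2464 CPM with azoxystrobin. It was at 2736, 2479, 2728 and 3740 CPM with picoxystrobin, at 2914, 2843, 3158 and 2979 CPM with pyraclostrobin, and at 2486, 2931, 2616 and 2831 CPM with trifloxystrobin. Only pyraclostrobin at 300 and 1000 nM and picoxystrobin at 1000 nM exceeded both DMSO libraries. Tubb2a, at 55.7 and 50.8 CPM with DMSO, ranged from 44.6 CPM (trifloxystrobin at 300 nM) to 70.9 CPM (picoxystrobin at 1000 nM).

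Tubb4b, the class IVb β-tubulin also found in cilia, was at 89.3 and 72.6 CPM with DMSO and 68.9 CPM with azoxystrobin. It was at 84.5, 70.8, 68.1 and 136.9 CPM with picoxystrobin, at 90.1, 81.6, 137.3 and 141.4 CPM with pyraclostrobin, and at 68.0, 87.9, 76.3 and 80.7 CPM with trifloxystrobin. The 300 and 1000 nM libraries of pyraclostrobin and the 1000 nM library of picoxystrobin lay above the other 12, which did not exceed 90.1 CPM.

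Tubb6, the class V β-tubulin, had its highest values in the same libraries. It was at 167.7 and 152.7 CPM with DMSO and 142.1 CPM with azoxystrobin. It was at 156, 125.8, 149 and 320.4 CPM with picoxystrobin, at 163.4, 163.7, 261.3 and 279.5 CPM with pyraclostrobin, and at 160.6, 158.5, 148.6 and 178.3 CPM with trifloxystrobin. Pyraclostrobin at 300 and 1000 nM and picoxystrobin at 1000 nM lay above the other 12, of which the highest was trifloxystrobin at 1000 nM.

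Tubb3, the class III β-tubulin, was at 14.9 and 14.3 CPM with DMSO and 16.5 CPM with azoxystrobin. It was at 12.4, 11.7, 13.0 and 30.6 CPM with picoxystrobin, at 16.3, 19.5, 23.6 and 22.5 CPM with pyraclostrobin, and at 19.0, 13.8, 17.4 and 24.1 CPM with trifloxystrobin. All 4 pyraclostrobin libraries were above both DMSO libraries, and picoxystrobin was below them at 30 to 300 nM and above at 1000 nM. Its reads numbered 185 to 477 per library.

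Tubg1, the γ-tubulin that nucleates microtubules, was at 43.3 and 34.7 CPM with DMSO and 39.6 CPM with azoxystrobin. It was at 38.5, 28.4, 30.4 and 59.5 CPM with picoxystrobin, at 38.5, 38.2, 46.7 and 56.5 CPM with pyraclostrobin, and at 35.9, 44.6, 36.9 and 38.2 CPM with trifloxystrobin. It had its highest values in picoxystrobin and pyraclostrobin at 1000 nM.

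**Figure D1:**
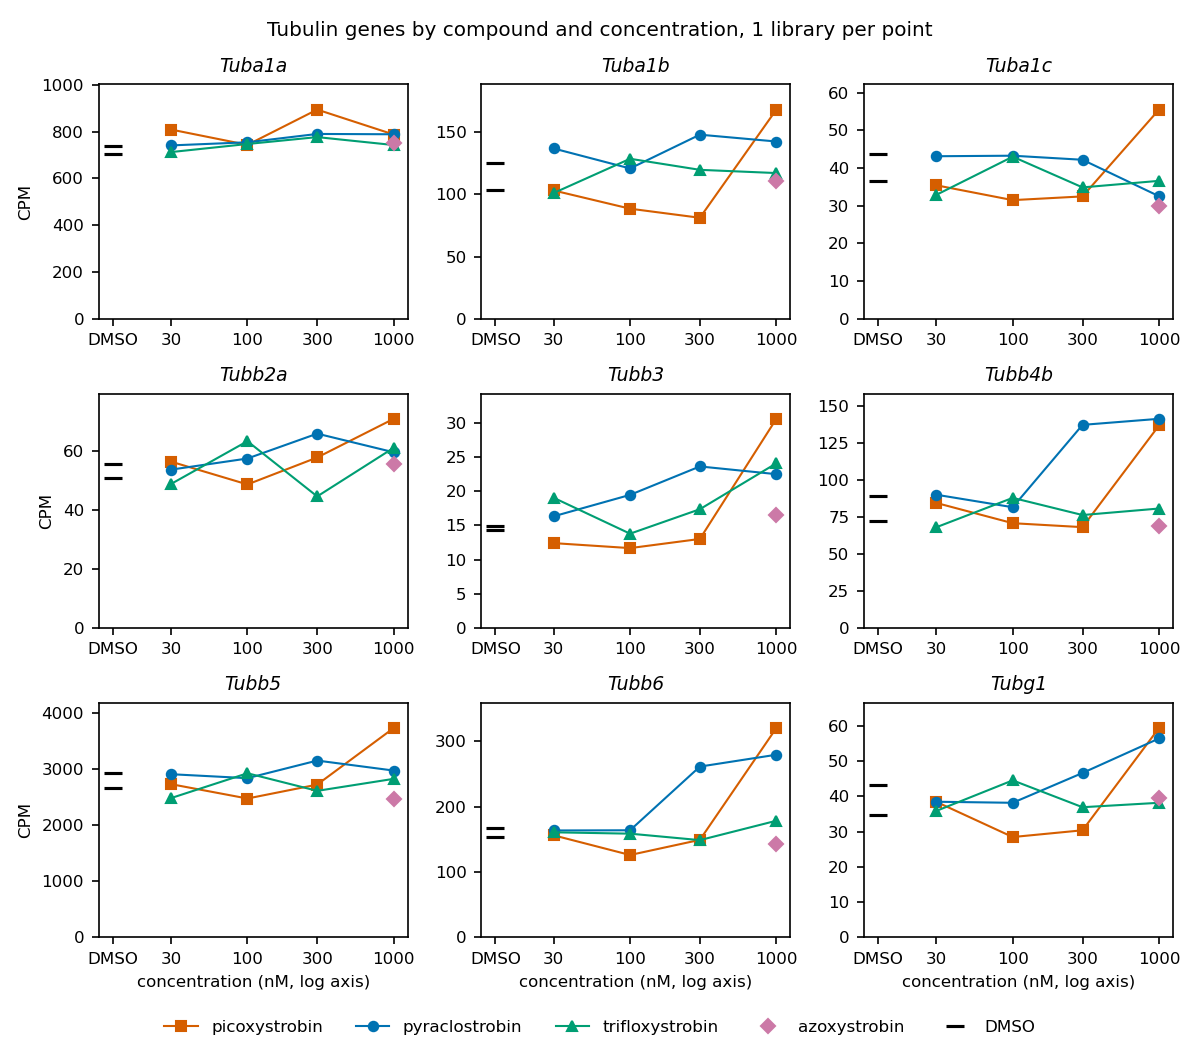
CPM (linear axes from 0) of the 9 tested tubulin genes against concentration in nM (log axis), 1 library per point, with the 2 DMSO libraries as bars at the left and azoxystrobin at 1000 nM as a diamond. Tubb4b and Tubb6 are high at 300 and 1000 nM of pyraclostrobin and at 1000 nM of picoxystrobin, while Tuba1a stays between 704 and 894 CPM.

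Each compound was first set against DMSO with edgeR's quasi-likelihood test, and a gene was called when its Benjamini-Hochberg adjusted p-value was under 0.05. The 3 comparisons share the same DMSO libraries, whose own ratio was 1.04 to 1.25 in the 9 tested genes. Of the 9 members, 0 were called for picoxystrobin, 0 for pyraclostrobin and 0 for trifloxystrobin, and 0 had an unadjusted p under 0.05. DESeq2 called 0 in each as well. Among all tested genes, 0.041% were called for picoxystrobin (19.2% at the unadjusted threshold), 1.71% for pyraclostrobin (25.8%) and 0% for trifloxystrobin (1.23%). Without the second DMSO library, the count of members called was again 0 for each compound.

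With pyraclostrobin, all 9 members had positive estimates, with a median log2 difference of 0.21 against 0.02 for all genes. This median depends on the DMSO library used: it was 0.387 without DMSO library 1, and 0.094, with 1 member turned negative, without DMSO library 2, whose label is in doubt. The log2 difference was 0.49 ± 0.33 (SE) for Tubb3, with a 95% interval of -0.22 to 1.20 and an adjusted p of 0.366. It was 0.48 ± 0.27 for Tubb4b (-0.10 to 1.05, adjusted p = 0.272) and 0.44 ± 0.31 for Tubb6 (-0.223 to 1.1, adjusted p = 0.382). For Tuba1a it was 0.09 ± 0.08 (-0.09 to 0.27), an upper bound of 1.20-fold. The intervals of the 3 β-tubulins hold no difference as well as, at their upper ends, folds of 2.3 (Tubb3), 2.07 (Tubb4b) and 2.14 (Tubb6).

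With picoxystrobin, 7 estimates were positive and 2 negative, with a median log2 difference of 0.13 against 0.02 for all genes. The smallest adjusted p was that of Tuba1a, with a log2 difference of 0.16 ± 0.08 (-0.01 to 0.34, adjusted p = 0.286). Without the library at 1000 nM the estimate of Tuba1a was nearly the same, at 0.18 ± 0.08 (adjusted p = 0.102), and that of Tubb2a was 0.03, while 5 others turned negative. The median of the 9 members was then -0.155, and Tubb3 was at -0.237, Tubb6 at -0.155 and Tubb4b at -0.115. Tuba1b, negative in both fits, went from -0.05 to -0.33 (adjusted p = 0.0691). With each library also corrected for GC content and transcript length, the median was 0.04. Tubb3 was then at 0.05, Tubb6 at 0.08 and Tubb4b at 0.04. In this corrected fit Tuba1b was at -0.15 (adjusted p = 0.548) and Tuba1a at 0.28 (adjusted p = 0.0733). With trifloxystrobin, 5 estimates were positive and 4 negative, their median was 0.01 against 0.00 for all genes, and the estimate for Tubb3 was 0.34 ± 0.33 (-0.37 to 1.06, adjusted p = 1).

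The 4 libraries of a compound lay above both DMSO libraries for 2 of 9 members with pyraclostrobin (Tuba1a and Tubb3) and for 21% of all tested genes. The numbers were 1 of 9 (Tuba1a) against 13.8% with picoxystrobin and 0 of 9 against 8% with trifloxystrobin.

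The libraries at the highest concentration, 1 per compound, were described without a test. At 1000 nM, 4 of 9 members were over 1.5-fold above the DMSO mean with picoxystrobin, beside 3.44% of all genes: Tubb3 (2.10-fold), Tubb6 (2.00-fold), Tubb4b (1.69-fold) and Tubg1 (1.53-fold). With pyraclostrobin 3 of 9 were, beside 8.32% of all genes: Tubb4b (1.75-fold), Tubb6 (1.74-fold) and Tubb3 (1.54-fold). With trifloxystrobin only Tubb3 was (1.65-fold), beside 0.318% of all genes, and with azoxystrobin none was, beside 0.143%. No member was over 1.5-fold below the DMSO mean in any library. At 300 nM, pyraclostrobin had 3 members past this fold, beside 5.37% of all genes. Picoxystrobin at 300 nM had 0 members, beside 7.55% of all genes, and trifloxystrobin 0, beside 0.0615%.

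**Figure D2:**
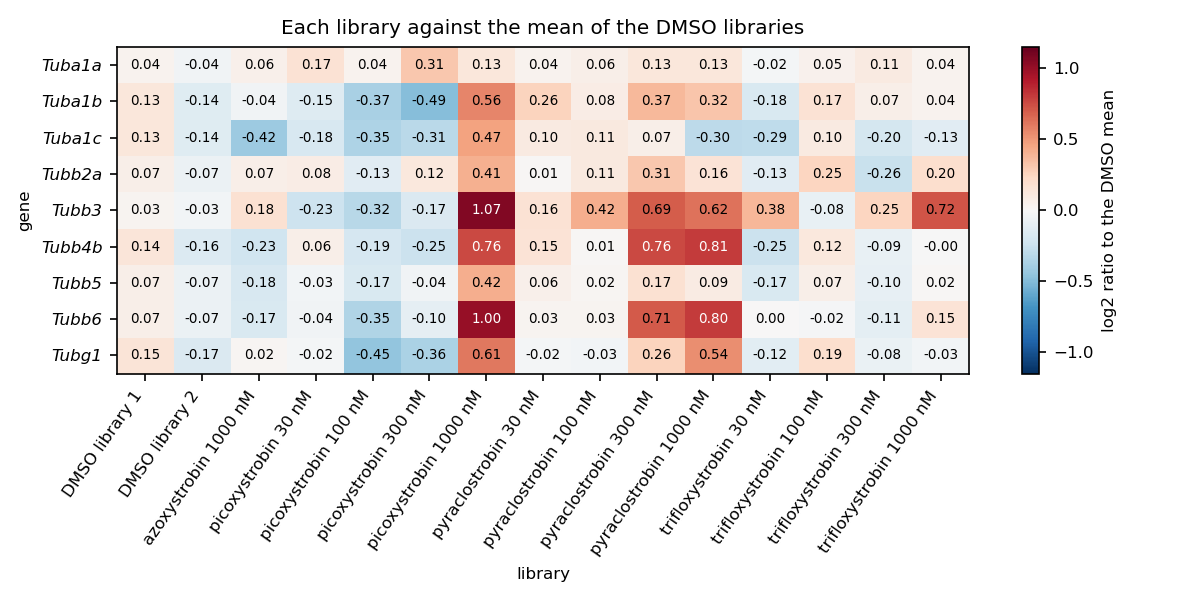
Log2 ratio of each library (columns) to the mean of the 2 DMSO libraries for the 9 tested genes (rows), with the ratio written in each field and coloured from blue (lower) to red (higher). Picoxystrobin at 1000 nM is higher for all 9 genes, and pyraclostrobin at 300 and 1000 nM is higher mainly for Tubb3, Tubb4b and Tubb6.

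The change along the concentrations of a compound was then estimated as a slope, the log2 change per 10-fold increase of concentration, which does not use the DMSO libraries as a reference. Of the 9 members, 0 were called for any of the 3 compounds by edgeR, and DESeq2 called 0 as well. At the unadjusted threshold 5 members passed for picoxystrobin, 2 for pyraclostrobin and 0 for trifloxystrobin. Among all tested genes, 0% were called for picoxystrobin (12.6% unadjusted), 3.17% for pyraclostrobin (21.6%) and 0% for trifloxystrobin (0.83%).

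For pyraclostrobin the slope was 0.59 ± 0.21 for Tubb6 (0.12 to 1.05, adjusted p = 0.138) and 0.52 ± 0.22 for Tubb4b (0.05 to 1.00, adjusted p = 0.187), followed by Tubg1 with 0.38 ± 0.21 (-0.08 to 0.84, adjusted p = 0.322) and Tubb3 with 0.33 ± 0.24 (-0.19 to 0.84, adjusted p = 0.457). Tubb5 had a slope of 0.05 ± 0.12 (-0.21 to 0.31), and Tuba1c, with -0.25 ± 0.18 (-0.64 to 0.15), was the only negative one. The median slope of the members was 0.13 against 0.00 for all genes. Whether Tubb6 and Tubb4b were called turned on a library of another compound, since all compounds share 1 estimate of the spread. Without picoxystrobin at 1000 nM, both were called, with nearly the same slopes and smaller standard errors: 0.58 ± 0.12 for Tubb6 (adjusted p = 0.00974) and 0.52 ± 0.14 for Tubb4b (adjusted p = 0.0254). In that fit 1516 of 9757 genes were called, against 309 with the library kept. Over the other alternatives that kept this library, the adjusted p of Tubb6 ranged from 5.89e-05 without a filter on low counts to 0.672 without pyraclostrobin at 1000 nM, and its slope from 0.53 to 0.76. With each library corrected for GC content and transcript length, Tubb6 was the only member called, with a slope of 0.64 ± 0.16 (adjusted p = 0.036). Of all 9757 genes, 830 were then called.

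The libraries of pyraclostrobin fell in a pair of levels for these genes. For 8 of 9 members, both 300 and 1000 nM were above both 30 and 100 nM, which was also true of 33.9% of all tested genes. The exception was Tuba1c. The numbers were 2 of 9 (Tubb2a and Tubb3) against 13.9% for picoxystrobin and 0 of 9 against 16.6% for trifloxystrobin. The summed mesenchymal markers were lower in the same pyraclostrobin libraries, those at 300 and 1000 nM. They were at 5380 and 6050 CPM with DMSO, at 4030, 4210, 2730 and 2410 CPM along the concentrations of pyraclostrobin, at 4390, 4620, 4640 and 3680 CPM with picoxystrobin and between 4220 and 5320 CPM with trifloxystrobin. Col1a1 gave most of each sum, and the members of this list did not all move together. Pdgfrb was at 164.1, 166.2, 135.4 and 225.1 CPM with picoxystrobin, the last being its highest library, while Col1a1, Col1a2 and Pdgfra were lowest there among the picoxystrobin libraries. With pyraclostrobin Pdgfrb was at 155.7, 183, 147 and 116.2 CPM. Thy1 was at most 0.117 CPM. The part of these markers in the tubulin values was not tested.

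For picoxystrobin all 9 slopes were positive, with a median of 0.41 against 0.03 for all genes. The slope was 0.86 ± 0.22 for Tubb3 (0.37 to 1.35, adjusted p = 0.371), 0.68 ± 0.20 for Tubb6 (0.249 to 1.104, adjusted p = 0.371) and 0.30 ± 0.11 for Tubb5 (0.04 to 0.55, adjusted p = 0.371). Tuba1b (0.42) and Tuba1c (0.41) also passed the unadjusted threshold, with adjusted p-values of 0.389 and 0.373. These slopes again rest on 1 library. Without the 1000 nM library, 7 of 9 changed sign, and Tubb6 was at -0.11, Tubb5 at -0.04, Tuba1b at -0.38 and Tubb3 at 0.03. With the GC and length correction as well, 4 of 9 changed sign and the median slope was 0.032. Without the 30 nM library the median slope of the members was 0.945 instead of 0.41. Without the 300 nM library instead, 3 members were called: Tubb3 with a slope of 0.93 (adjusted p = 0.0243), Tubb6 with 0.74 (adjusted p = 0.0249) and Tuba1b with 0.50 (adjusted p = 0.0392). In that fit 1477 of 9757 genes were called, against 0 with the library kept.

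For trifloxystrobin 8 slopes were positive and 1 negative, and they ranged from -0.00 (Tubg1) to 0.27 ± 0.23 (Tubb3, -0.23 to 0.76). The interval for Tubb6 was -0.38 to 0.53.

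**Figure D3:**
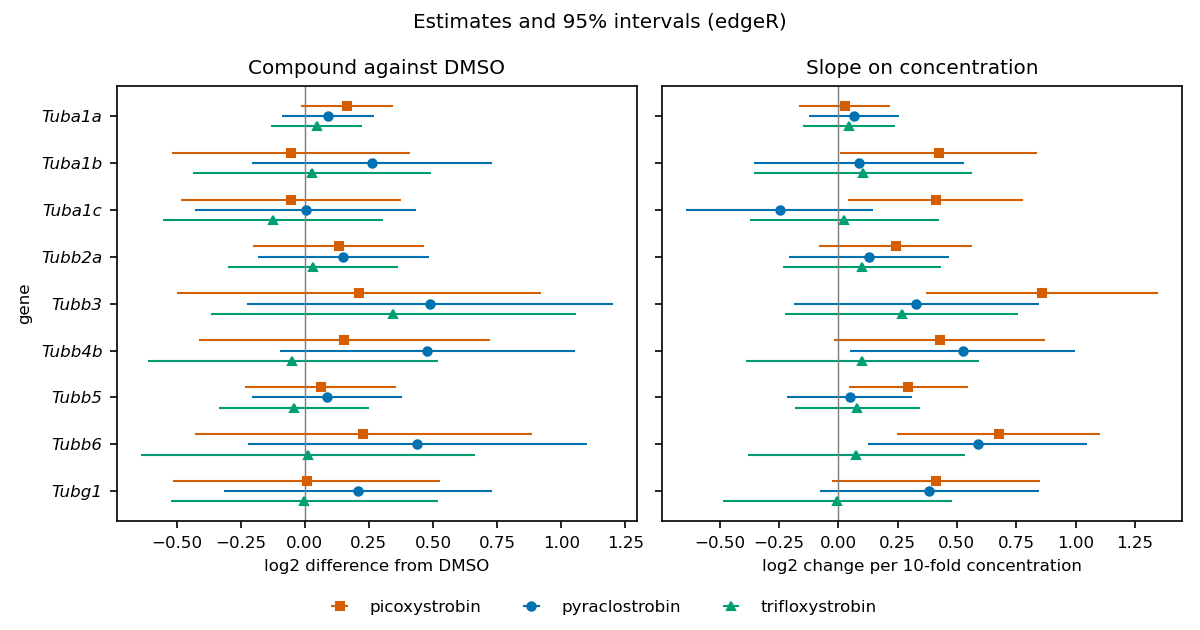
Log2 difference from DMSO (left) and log2 change per 10-fold concentration (right) of the 9 tested genes for 3 compounds, as edgeR estimates with 95% intervals. No gene was called. The intervals of Tubb6 and Tubb4b for the pyraclostrobin slope lie above 0, as do those of 5 genes for picoxystrobin, and those of Tuba1a are the narrowest.

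Strobilurins were compared with each other at their 4 matched concentrations, with the concentration as a block, in 3 pairs. Of the 9 members, 0 were called in any pair by edgeR or DESeq2. For pyraclostrobin against trifloxystrobin, 1 member passed the unadjusted threshold: Tubb4b was higher with pyraclostrobin by a log2 difference of 0.48 ± 0.18 (0.08 to 0.88, adjusted p = 0.23). Tubb6 differed by 0.37 ± 0.18 (-0.02 to 0.77, adjusted p = 0.294). All 9 members were higher with pyraclostrobin in this pair, by a median of 0.16 against 0.01 for all genes. Among all tested genes 0.0307% were called, and 17.9% passed at the unadjusted threshold.

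For pyraclostrobin against picoxystrobin, 0 members passed the unadjusted threshold, while 11.6% of all genes did and 0.0205% were called. The log2 difference was 0.35 ± 0.17 for Tuba1b (-0.02 to 0.72, adjusted p = 0.436) and 0.37 ± 0.20 for Tubb3 (-0.06 to 0.80, adjusted p = 0.469), both higher with pyraclostrobin. For Tuba1a it was -0.07 (-0.23 to 0.09). Without picoxystrobin at 1000 nM, 6 of 9 members passed the unadjusted threshold and 0 were called. Of all 9757 genes, 2973 then passed, against 1133 with the library kept. The median of the members went from 0.226 to 0.409. Tuba1b was then at 0.58 ± 0.12 (adjusted p = 0.0516) and Tubb3 at 0.63 ± 0.15 (adjusted p = 0.056). With the GC and length correction as well, 3 members passed the unadjusted threshold, beside 1925 of all 9757 genes. The median of the members was then 0.218, with Tuba1b at 0.43 ± 0.12 (adjusted p = 0.14) and Tubb3 at 0.42 ± 0.13 (adjusted p = 0.155). For picoxystrobin against trifloxystrobin, 0 members passed, beside 8.64% of all genes unadjusted and 0% called. The estimates ran from -0.21 for Tubb3 (-0.63 to 0.22) to 0.15 for Tubb4b (-0.26 to 0.55). Without picoxystrobin at 1000 nM, 4 members changed sign and the median went from 0.088 to -0.091. Tubb3 was then at -0.48 ± 0.15 (adjusted p = 0.0545) and Tubb4b at -0.008. With the correction as well, the median was 0.056, Tubb3 was at -0.24 ± 0.13 (adjusted p = 0.42) and Tubb4b at 0.12.

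The slopes themselves were also compared. Of the 9 members, 0 were called for any of the 3 differences, and 0% of all tested genes were. Tuba1c was the only one to pass the unadjusted threshold: its slope was lower with pyraclostrobin than with picoxystrobin by -0.66 ± 0.25 (-1.20 to -0.12, adjusted p = 0.366), beside 13.3% of all genes. Without picoxystrobin at 1000 nM this difference was -0.09 ± 0.24 (adjusted p = 0.9), while those of Tubb4b (0.86 ± 0.26), Tubg1 (0.76 ± 0.24) and Tubb6 (0.69 ± 0.22) each had an adjusted p of 0.321. For pyraclostrobin minus trifloxystrobin, the difference was 0.51 ± 0.30 for Tubb6 (-0.14 to 1.16) and 0.42 ± 0.31 for Tubb4b (-0.26 to 1.11), beside 10.3% of all genes at the unadjusted threshold. For picoxystrobin minus trifloxystrobin it was 0.60 ± 0.29 for Tubb6 (-0.03 to 1.23), beside 1.77%. Without picoxystrobin at 1000 nM all 9 members changed sign in this difference, the median going from 0.325 to -0.192, and Tubb6 was at -0.19 ± 0.22 (adjusted p = 0.751). With the GC and length correction as well, 8 of 9 changed sign, the median was -0.037 and Tubb6 was at -0.012. The slopes of the compounds were thus not shown to differ, and the intervals leave room for differences of more than 1 on the log2 scale in Tubb6.

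A ratio within each library does not depend on the library's scaling, but it can depend on base composition. The GC content was 56.6% in Tubb6, 54.9% in Tubb4b and 57.9% in Tubb3, against 52% in Tubb5. The part of GC content in the ratios was not tested. Of the 50-base windows of Tubb4b, 55.5% also occur in a transcript of another gene. The CPM of Tubb6 was 5.07 to 6.46% of that of Tubb5 in 12 libraries, and 8.28 and 9.38% with pyraclostrobin at 300 and 1000 nM and 8.57% with picoxystrobin at 1000 nM. For Tubb4b the ratio was 2.50 to 3.09% in the same 12 libraries and 4.35, 4.75 and 3.66% in these 3. For Tubb3 the 3 libraries did not stand apart: they had 0.748, 0.755 and 0.818%, within the 0.453 to 0.85% of the others. These 3 libraries were singled out after their values were seen, and the ratios are a description. Per kilobase, Tubb5 made up 80.5, 79.1 and 81.1% of the β-tubulins in them, and 84.1 to 86.0% in the other 12.

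**Figure D4:**
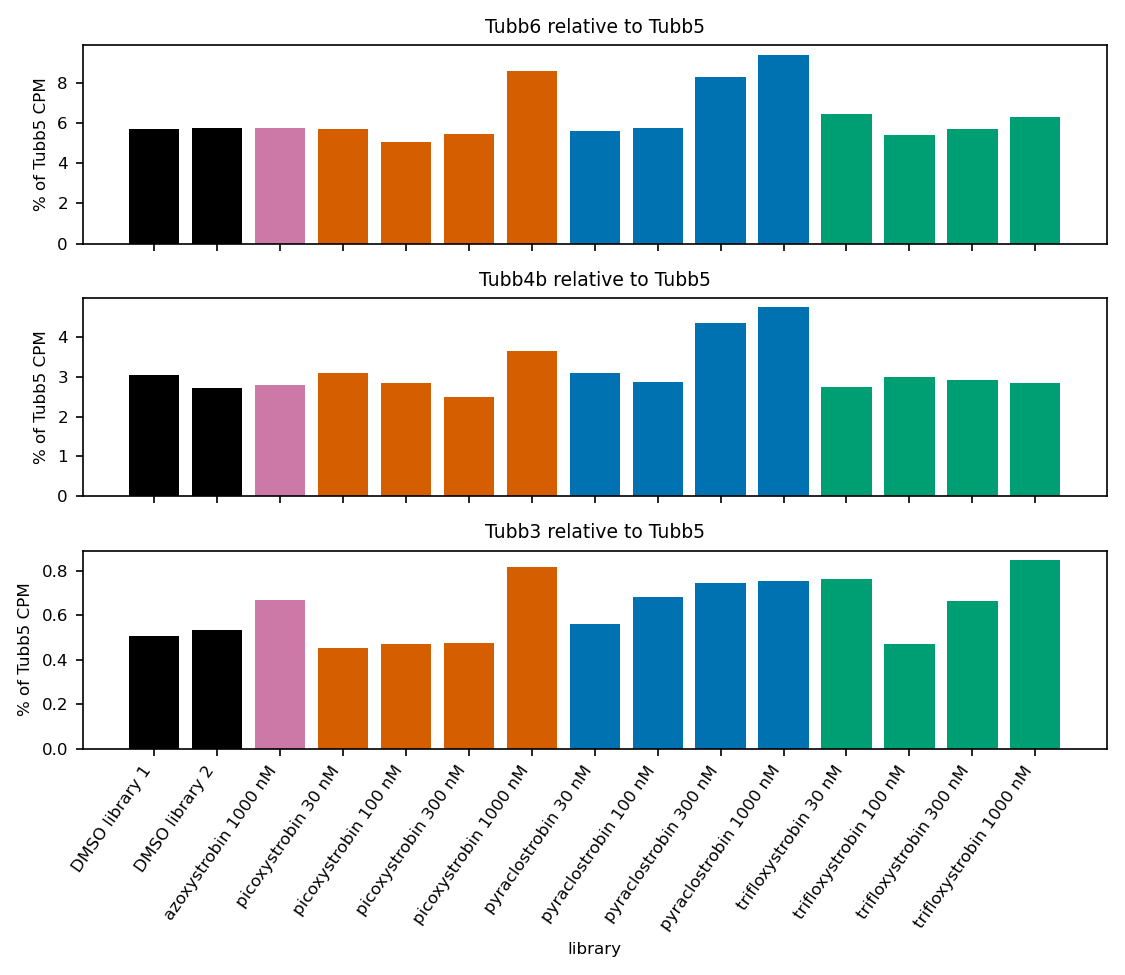
CPM of Tubb6, Tubb4b and Tubb3 as a percentage of the CPM of Tubb5 in each of 15 libraries, as bars from 0 coloured by compound. Pyraclostrobin at 300 and 1000 nM and picoxystrobin at 1000 nM stand above the other 12 libraries for Tubb6 and Tubb4b, and not for Tubb3.

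The promoters of Tubb4b, Tubb5 and Tubb3 are printed because these genes differ in their pattern over libraries. Each line holds the 250 bases before the start site (RefSeq, GRCm38.p6), with CCAAT boxes and GGGCGG boxes of either strand in capitals. RefSeq promoters were extracted for 7 of the 10 members, and Tubb6 is not among them.

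Tubb4b, chr2:25224703-25224952, minus strand: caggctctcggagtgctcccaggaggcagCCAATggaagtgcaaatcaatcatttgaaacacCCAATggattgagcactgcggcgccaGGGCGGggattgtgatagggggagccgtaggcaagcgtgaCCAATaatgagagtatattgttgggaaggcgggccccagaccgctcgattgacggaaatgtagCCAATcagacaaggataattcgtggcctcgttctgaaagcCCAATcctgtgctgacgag

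Tubb5, chr17:35838302-35838551, minus strand: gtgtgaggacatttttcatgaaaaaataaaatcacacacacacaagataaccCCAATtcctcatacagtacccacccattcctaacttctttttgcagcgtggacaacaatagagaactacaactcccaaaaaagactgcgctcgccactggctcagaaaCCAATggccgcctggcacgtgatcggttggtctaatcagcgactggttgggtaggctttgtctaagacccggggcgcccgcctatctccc

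Tubb3, chr8:123411303-123411552, plus strand: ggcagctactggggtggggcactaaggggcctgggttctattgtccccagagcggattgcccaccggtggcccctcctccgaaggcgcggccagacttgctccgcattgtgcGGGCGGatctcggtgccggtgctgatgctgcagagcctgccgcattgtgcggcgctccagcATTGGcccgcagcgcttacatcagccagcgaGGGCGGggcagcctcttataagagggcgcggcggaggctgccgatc

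CCAAT on either strand occurred 5 times in Tubb4b, 2 times in Tubb5 and once in Tubb3, and at least once in 33.8% of 32851 promoters of this length. GGGCGG on either strand occurred once in Tubb4b, 2 times in Tubb3 and not in Tubb5, and in 32.7% of all promoters. Of the motifs also searched on both strands, TATAAA was in none of the 3 and in 12.4% of all promoters, and TTTGAA occurred once in Tubb4b and in 16% of all promoters. The motifs shared no bases in these sequences. A match is a description of the letters.

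Other tubulin genes outside the 10 were mostly silent. Of 10, Tuba4a, Tubb4a and Tube1 were tested. Tubb4a, a β-tubulin of oligodendrocytes and neurons, was at 13.4 and 12.2 CPM with DMSO, at 9.99, 9.67, 11.3 and 22.2 CPM along the concentrations of picoxystrobin, at 11.4, 14.6, 17.5 and 18.5 CPM with pyraclostrobin, and at 9.33 to 14.9 CPM with trifloxystrobin. Its slope was 0.77 ± 0.20 for picoxystrobin (adjusted p = 0.371) and 0.46 ± 0.20 for pyraclostrobin (adjusted p = 0.206), and the highest library was again picoxystrobin at 1000 nM. Tuba4a, an α-tubulin gene, was at 39.9 to 82.3 CPM and Tube1, the ε-tubulin of centrioles, at 10.2 to 21.6 CPM, with trifloxystrobin at 100 nM the highest for both. Neither was called in any comparison.

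The partners of tubulin were described by list. In the γ-tubulin ring complex, which anchors γ-tubulin, 0 of 10 tested genes were called by edgeR in any of the 12 comparisons, and 0 to 2 passed the unadjusted threshold against DMSO or as a slope, with 2 for picoxystrobin and 2 for pyraclostrobin against DMSO, where 19.2 and 25.8% of all genes did. In tubulin folding, the list of the chaperonin CCT, prefoldin and the tubulin cofactors, 0 of 21 tested genes were called and 0 to 5 passed the unadjusted threshold, the 5 with picoxystrobin against DMSO, where 19.2% of all genes did. With pyraclostrobin against DMSO the median log2 difference of the folding genes was 0.18 against 0.02 for all genes, and with picoxystrobin 0.23 against 0.02.

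Of 10 tested genes of tubulin mRNA autoregulation, 1 fell with pyraclostrobin, beside 1.71% of all genes called in either direction. Cnot3, a scaffold subunit of the CCR4-NOT deadenylase, had a log2 difference of -0.51 ± 0.12 (adjusted p = 0.0455), with 35.6 and 31.4 CPM with DMSO and 23.3, 25.2, 21.6 and 23.9 CPM along the concentrations. It was also at 22.9 to 24.0 CPM with picoxystrobin at 30 to 300 nM. Of 15 tested genes of tubulin modification, 1 rose along the concentrations of pyraclostrobin, beside 3.17% of all genes called in either direction. Agtpbp1, a deglutamylase that trims glutamate chains from tubulin, had a slope of 0.58 ± 0.12 (adjusted p = 0.0362), with 31.8, 32.9, 46.6 and 56.1 CPM against 29.2 and 33.6 CPM with DMSO. Its libraries at 300 and 1000 nM were again the high ones.

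Of 21 tested microtubule-associated and severing proteins, 1 fell with pyraclostrobin against DMSO, beside 1.71% of all genes called, and another along its concentrations, beside 3.17%. These lists were not tested against all genes. Map1b, which stabilises microtubules in growing neurites, had a log2 difference of -0.48 ± 0.09 (adjusted p = 0.0347), with 439.4 and 421 CPM with DMSO and 313, 330.7, 304.5 and 287.2 CPM. Clasp1, which binds growing microtubule ends, had a slope of -0.39 ± 0.09 (adjusted p = 0.0412), with 138.1, 129.4, 105.2 and 94.4 CPM. The comparisons of picoxystrobin and trifloxystrobin with DMSO and their slopes had 0 calls in all 6 lists. None of these 4 calls held under every leave-one-out fit. Without DMSO library 1 or 2, or without pyraclostrobin at 300 or 1000 nM, Cnot3 had adjusted p-values of 0.408, 0.265, 0.15 and 0.106 and Map1b of 0.394, 0.265, 0.132 and 0.094. Without any 1 of the 4 pyraclostrobin libraries, Agtpbp1 had adjusted p-values from 0.0627 to 0.57 and Clasp1 from 0.0761 to 0.581.

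The genes outside the family whose log2 CPM followed the log2 summed CPM of the 10 members most closely over the 15 libraries were Cdca2, Cdca8 and Arl6ip1, out of 9748. Most of the sum is Tubb5, at 2830 CPM on average, followed by Tuba1a at 766 CPM. Over the 15 libraries, r of Tuba1a with the other tested members ran from -0.126 (Tuba1b) to 0.336 (Tubb2a). Pearson's r was 0.957 for Cdca2, 0.953 for Cdca8 and 0.942 for Arl6ip1, and Spearman's rho was 0.961, 0.843 and 0.939. Without the 2 libraries farthest from the median, picoxystrobin at 1000 nM and pyraclostrobin at 300 nM, r was 0.944, 0.879 and 0.855. They were chosen as the highest of all genes, and the points share depth and base composition, so these values are a description. Cdca2 ranged from 22.6 to 43.8 CPM, Cdca8 from 58.6 to 117 CPM and Arl6ip1 from 231 to 423 CPM.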

How the data were processed

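Total RNA libraries (SENSE kit, Lexogen) were sequenced from a single end on a NextSeq500. The submitters' processing notes name Bowtie2 2.3.2.2 and mm10. The authors counted reads per gene with htseq-count and deposited raw counts, 1 table per library, not normalized. The annotation and the strand setting are not given in the sources used here. The total counts of 12292390 to 18188099 per library, with the spread between libraries (about 12.3% as the root of the dispersion), set the precision, and intervals cover no other error.

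From these counts, TMM factors and CPM were computed for 15 distinct libraries, azoxystrobin at 100 nM being left out as a repeat of a DMSO library. Genes with an average over 10 CPM entered edgeR's quasi-likelihood test (version 4.0.16, R 4.3.3), which is two-sided, with Benjamini-Hochberg adjustment over all 9757 genes and a threshold of 0.05. The models had 1 level per compound, a slope on log10 concentration for each of 3 compounds, or compound and concentration (12 libraries). Azoxystrobin at 1000 nM, a single library, had no test. The standard error is the log2 estimate divided by the root of the F statistic, and ratios of single libraries used CPM without a prior count.

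The alternatives were DESeq2 1.42.0, RLE size factors, filterByExpr and no filter, a robust fit, a GC and length correction (natural splines with 4 degrees of freedom on 9724 genes, 99.66%), separate fits, a split in high and low concentrations, no concentration block, picoxystrobin at 1000 nM left out, the repeated library kept, and each library left out in turn. The correction combined with leaving out picoxystrobin at 1000 nM was added after the data were seen. GENCODE M21 gave positions, lengths and coding starts for 54092 of 54658 symbols, and RefSeq (GRCm38.p6) gave promoters. The named genes are all members, the other tubulins, up to 3 called genes per list and comparison by size of change, and the 3 genes most like the summed members. The members and lists were chosen with earlier results of these data known.

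As a test on simulated data, counts were drawn for the same 9757 genes, 200 of them changed. For pyraclostrobin against DMSO, 40% of genes changed by 0.5 on the log2 scale and 100% of those changed by 1 were called, with 2.78% false calls. For the pyraclostrobin slope the shares were 37% and 100% (4.86% false). For the slope difference of pyraclostrobin and picoxystrobin they were 3% and 67% (1.41% false). For these compounds at matched concentrations they were 60% and 100% (4.76% false). These shares pool the changed genes of each size, and the share for the tubulin genes was not tested. In the deposited data, the members' standard errors for pyraclostrobin against DMSO ran from 0.084 (Tuba1a) to 0.334 (Tubb3). They were 0.27 for Tubb4b and 0.31 for Tubb6. Plots used matplotlib 3.10.9 and pandas 2.3.3 under Python 3.11.15.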

Additional observations from a re-analysis of the deposited data

Results flagged for a closer look

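In each of the 27 sets of 4 libraries (9 tested tubulin genes in 3 compounds), the distance of the most extreme library to its nearest neighbour was divided by the range of the set. In 4 sets this share passed Dixon's 95% critical value, which chance passes in about 1 of 20 sets. In 3 of them the extreme library was picoxystrobin at 1000 nM, which was high for Tubb3 (share 0.929, 30.6 CPM against at most 13.0 CPM at the lower concentrations), for Tubb6 (0.845, 320 against at most 156 CPM) and for Tuba1c (0.836, 55.5 against at most 35.4 CPM). The fourth was Tuba1c with pyraclostrobin at 1000 nM, which was low (0.900, 32.5 against at least 42.2 CPM). Since the libraries of a set differ in concentration, a response to concentration and a library that stands apart cannot be told apart. The sets are also not independent: the genes of a compound share its libraries, and members vary together (r = 0.825 for Tubb3 and Tubb6 over the 15 libraries). The 4 sets therefore cannot be weighed against the rate of 1 of 20.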

How the results depend on the processing

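The count of members called was 0 in all 12 comparisons and stayed 0 in all but 8 of the alternative fits. Without a filter on low counts, 1 member was called for pyraclostrobin against DMSO (Tubb4b), beside 1195 of 30839 genes. For the picoxystrobin slope 4 were called (Tuba1b, Tubb3, Tubb4b and Tubb6), beside 491 of 30839. For the pyraclostrobin slope 2 were called, beside 1246 of 30839, and for pyraclostrobin against trifloxystrobin 2, beside 818 of 30024 (Tubb4b and Tubb6 in both). The cause was not tested. For the pyraclostrobin slope, 1 was called with the GC and length correction (Tubb6), 2 without picoxystrobin at 1000 nM (Tubb4b and Tubb6) and 3 with both changes (Tubb4b, Tubb6 and Tubg1). Of all 9757 genes, 830, 1516 and 1590 were called in these fits. Leaving out in turn each library of the groups compared gave 0 to 3 for the picoxystrobin slope and 0 in the other 11 comparisons.

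Among the single members followed through every alternative, 8 picoxystrobin estimates turned their direction, all without picoxystrobin at 1000 nM, and 3 of them also with the GC and length correction added. Against DMSO, picoxystrobin then gave a log2 difference of -0.24 for Tubb3, -0.12 for Tubb4b and -0.15 for Tubb6. Its slopes were -0.38 for Tuba1b, -0.16 for Tuba1c, -0.35 for Tubb4b, -0.043 for Tubb5 and -0.11 for Tubb6, and with the GC and length correction as well -0.26 for Tuba1b, -0.018 for Tuba1c and -0.23 for Tubb4b. With each library left out in turn, the picoxystrobin differences from DMSO reached up to 0.357 for Tubb3, 0.312 for Tubb4b and 0.38 for Tubb6, and its slopes up to 0.945 for Tuba1b, 0.834 for Tuba1c, 0.97 for Tubb4b, 0.597 for Tubb5 and 1.362 for Tubb6, the lowest values being those without 1000 nM.

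Counts over all genes moved more. Against DMSO, 0 to 2702 genes were called for picoxystrobin and 0 to 1224 for pyraclostrobin, 0 to 1477 and 0 to 1590 for their slopes, 0 to 415, 0 to 818 and 0 to 1280 for pyraclostrobin against picoxystrobin, pyraclostrobin against trifloxystrobin and picoxystrobin against trifloxystrobin, and 0 to 685, 0 to 245 and 0 to 14 for the slope differences in the same order. For trifloxystrobin against DMSO and its slope they were 0 in every alternative. No paired analysis was possible because the labels give replicate numbers to the DMSO libraries alone; this concerns replicate numbers, and the compounds were instead matched by concentration as a block, without which 0 members were called in each of the 3 pairs. Depth limits Tubb2b, and the single library per concentration limits all other members.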
